A study of Mus musculus with 9 samples.

Results

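The cytoplasmic ribosomal protein genes of mouse neural stem cells were followed through knockdown of Rad21, a subunit of the cohesin ring. Members were the rows of the count table whose symbol is Rpl or Rps followed by a number and at most 1 letter of a, l, x or y. Rplp0, Rplp1, Rplp2, Rpsa, Rpl7l1 and Rpl22l1 were added, Rps27l was left out, and so was every symbol ending in -ps. This gave 82 genes of 24503 in the table, of which 48 belong to the large subunit, 31 to the small subunit and 3 to the stalk. Of these, 78 passed the filter on low counts and were tested.

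The ribosome is built from ribosomal RNA and a fixed set of proteins, most of which are needed in equal amounts. The genes of these proteins are among the most highly expressed in dividing cells. Many of their mRNAs begin with a cytidine and a run of pyrimidines, the 5′ terminal oligopyrimidine (TOP) motif, through which mTOR and the RNA-binding protein Larp1 control their translation. Proteins of the 5S particle, Rpl5 and Rpl11, also bind and inhibit Mdm2 when ribosome assembly fails, which stabilises p53. Neural stem cells need a high output of ribosomes to proliferate, and mutations of several of these genes cause human ribosome disorders.

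The cells were primary cultures from the cortex of E13.5 mouse embryos. They were enriched as neurospheres and grown on laminin (5 µg/mL) with FGF (10 ng/mL) and EGF (20 ng/mL). Cells of all groups carried floxed Phf2 on both alleles and were otherwise wild type. Virus delivered a non-targeting hairpin (shNT) or hairpin shRad21 #1 or #2 against Rad21, here shRad21_1 and shRad21_2. There were 9 RNA-seq libraries, 3 in each of 3 groups. No source used here gives the time after infection or says that libraries of a group came from separate cultures or animals, so p-values measure how much libraries differ, possibly for technical reasons.

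Libraries held between 34780003 and 46644607 counts. Rad21 stood between 450 and 531 CPM (counts divided by the TMM-adjusted library total, on a common scale) in shNT, between 174 and 187 CPM with shRad21_1 and between 82.0 and 91.2 CPM with shRad21_2. Rn45s, the ribosomal RNA gene, held 0.483% of the counts in shRad21_2 replicate 1, where the other 8 libraries ranged from 0.0552% to 0.114%. Replicates 2 and 3 of shNT and replicates 2 and 3 of shRad21_1 were far closer to each other than any other pair within a group, with a chi-square per gene of 3.20 and 2.18 against 23.2 to 70.7. Replicate 1 of shRad21_2 stood apart from its group in the members' pattern, so the main counts are also given without it. The summed level of 15 neural stem cell markers ran from 9599 to 9914 CPM in shNT, from 7959.7 to 9485 with shRad21_1 and from 8158 to 9229 with shRad21_2. A gene is said to be called where edgeR gave it an adjusted p under 0.05 over all genes tested. In shRad21_2 against shNT, 3 of these 15 were called higher and 7 lower. Of all 13560 genes tested, 21.1% were called higher in this comparison and 22.5% lower, beside which the marker counts here stand. Of 12 neuron markers, 9 were tested, 1 was called higher and 4 lower, and their sum ran from 1192 to 1318 CPM in shNT, 1149.9 to 1234 with shRad21_1 and 1067 to 1180.3 with shRad21_2. Of 10 astrocyte markers, 9 were tested and 7 were called lower, with sums of 1718 to 2013, 776 to 1623 and 986 to 1119.9 CPM in the same order of groups. Of 10 oligodendrocyte lineage markers, 8 were tested, 1 was called higher and 6 lower, with sums of 2757 to 2888, 3092 to 3229.8 and 2694 to 3088 CPM. A sum gives most weight to the genes with the most counts. In shRad21_2 against shNT, the median log2 fold change of tested markers was -0.39 for neural stem cells and -0.72 for neurons. It was -2.55 for astrocytes and -1.59 for the oligodendrocyte lineage. Microglia markers summed to at most 3.16 CPM in any library, endothelial markers to at most 15.0 and mesenchymal markers to at most 9.95. Of these, 1 of 1, 2 of 4 and 2 of 3 tested genes were called lower. Aif1, Cx3cr1 and C1qa of microglia and Dcn of mesenchyme were at 0 in all 9 libraries. Gjb6 of astrocytes was at 0 in both knockdown groups, Sox10, Mog, Cldn5 and Flt1 were at 0 with shRad21_2, and Neurod6, Tmem119, Ptprc, Cldn5 and Lum with shRad21_1. Itgam was at 0 in shNT. In bulk RNA, fewer cells of a type and less RNA per cell cannot be told apart. The part of these marker and Rn45s differences in the results on ribosomal proteins was not tested.

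RefSeq start sites on build GRCm38.p6 were found for 61 of the 82 members, and 13 of them began with C followed by at least 4 pyrimidines at an annotated start. That is 21.3% of the matched members, against 3.01% of 10205 tested genes that are no members. The windows below run from 10 bases before the start to 20 bases into the transcript, 5′ to 3′ on the gene's strand, with the tract in capitals. Rpl35, Rpl15 and Rps10 are shown as members with a tract among those called with the smallest p. Rps2, Rpl23 and Rplp0, also among those, have no tract at an annotated start and are not shown. Rps6 and Rpl38 are members with a tract that were named for their roles. Rpl22l1, the member with the smallest fold change, has a G at its annotated start. A run of pyrimidines follows that G directly, but by the rule used here it does not count as a tract.
Rpl35 (chr2:39005112-39005141, minus strand): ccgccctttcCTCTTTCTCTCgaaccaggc
Rpl15 (chr14:18270967-18270996, minus strand): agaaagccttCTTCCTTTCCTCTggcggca
Rps10 (chr17:27635225-27635254, minus strand): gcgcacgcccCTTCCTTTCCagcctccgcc
Rps6 (chr4:86857348-86857377, minus strand): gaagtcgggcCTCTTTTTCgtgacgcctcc
Rpl38 (chr11:114668570-114668599, plus strand): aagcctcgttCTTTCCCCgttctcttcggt
Rpl22l1 (chr3:28805498-28805527, plus strand): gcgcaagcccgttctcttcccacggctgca
The letters CCGGAAG, a core known to be bound by ETS-family factors, were searched on both strands of the 300 bases around each start. They were present for 24 of the 61 members (39.3%), 19.1% of tested genes that are no members and 9.93% of all 27025 genes with a start. On the opposite strand the motif reads CTTCCGG, so it can overlap a pyrimidine tract.

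Members took 4.99%, 5.13% and 5.22% of all counts in the 3 shNT libraries (5.11% ± 0.116, SD, n = 3). They took 5.48%, 5.39% and 5.32% with shRad21_1 (5.39% ± 0.0793, n = 3). With shRad21_2 they took 6.17%, 5.86% and 7.15% (6.39% ± 0.674, n = 3). The 3 groups did not overlap in this share, and shRad21_2 replicate 3 was the highest library. The ratio of large-subunit to small-subunit counts ran from 1.474 to 1.490 in shNT and from 1.456 to 1.470 in the other 6 libraries, so it was slightly lower with both hairpins and did not overlap. This difference was not tested.

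**Figure D1:**
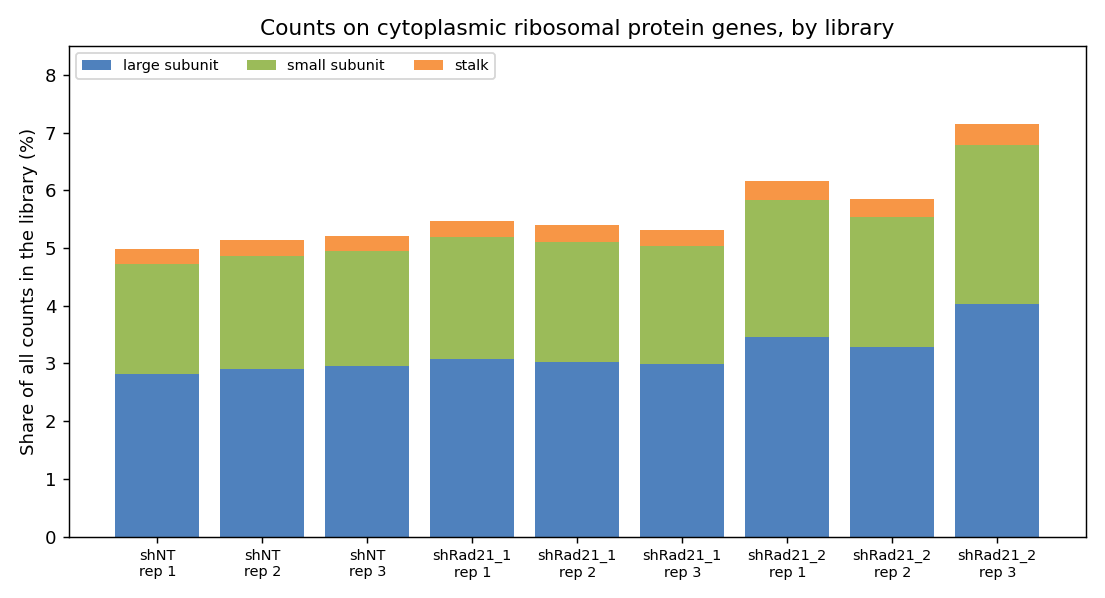
Share of all counts on ribosomal protein genes in each of the 9 libraries, stacked by subunit and starting at 0; the vertical axis is in percent. The shNT libraries sit between 4.99% and 5.22%, those with shRad21_1 between 5.32% and 5.48%, and those with shRad21_2 between 5.86% and 7.15%.

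Per kilobase of transcript, the median tested member stood at 824 CPM per kb in shNT, and 69 of 78 lay between 400 and 2000 CPM per kb. Rpl41, which encodes the shortest protein of the large subunit, was the highest at 3353 CPM per kb. The next were Rpl23a, at 1842 CPM per kb, and Rps2, at 1799 CPM per kb. On the CPM scale, the highest members were Rps2, Rplp0 and Rpsa, and the lowest tested members were Rps27, Rpl30 and Rpl34. The lowest per kilobase were Rps27 (4.45 CPM per kb), Rpl30 (50.1), Rpl26 (61.4) and Rpl34 (71.9), which share most of their sequence with a copy elsewhere in the genome. Rps20 came next at 111 CPM per kb, a value that rests on the annotated principal transcript of 3706 bases.

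With shRad21_2, ribosomal protein mRNAs were higher than in shNT across both subunits and the stalk. Of 78 tested members, 58 were called higher (74.4%), 0 lower, and 20 were not called. Among all 13560 genes tested, 43.6% were called in this comparison, 21.1% higher and 22.5% lower. Among the 2458 other genes with a mean of at least 100 CPM, 34.0% were called higher. The median log2 fold change of the members was 0.40, which is 1.32-fold, against 0.01 over all genes tested and 0.14 over those 2458 genes. Members ranged from 0.03 for Rpl22l1 to 0.77 for Rps27, and 2 of them reached 1.5-fold. All 3 shRad21_2 libraries lay above all 3 shNT libraries for 63 members (80.8%), against 27.3% of all genes tested, and for 0 they lay below, against 28.6%. The 58 called members were among these 63. With library totals in place of TMM scaling, 46 members were called higher and 0 lower, and 2167 of 5708 called genes were higher in place of 2861 of 5917. With the close pairs of libraries summed, 38 members were called higher, beside 11.6% of all genes tested. Among the genes described below, that fit lost the calls of Rpl5, Rpl22, Rpl26, Rplp1, Rplp2, Rps4x, Rps14, Rps19 and Rps26, and of Rpl36al, Rpl34-ps1, Snhg3 and Snhg7 outside the members.

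**Figure D2:**
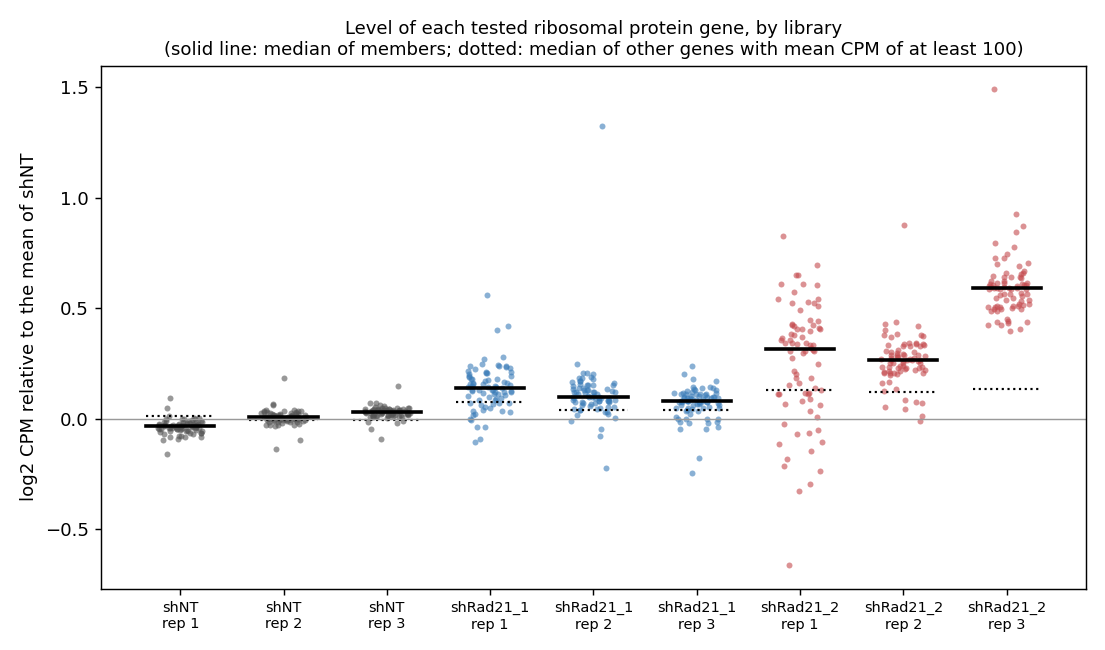
Level of the 78 tested members in each library, as log2 CPM relative to the mean of shNT; each point is a gene, the solid line is the median of the members and the dotted line that of 2458 other genes with a mean of at least 100 CPM. The medians of the members are 0.31, 0.27 and 0.59 in the 3 shRad21_2 libraries, and the points spread most in shRad21_2 replicate 1.

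Of the large subunit, 33 of 45 tested genes were called higher with shRad21_2 (median log2 fold change 0.40). Rpl15 encodes a protein in the interior of the large subunit. It stood at 762, 786 and 798 CPM in shNT, 942, 867 and 856 CPM with shRad21_1 and 1040.0, 1047 and 1218 CPM with shRad21_2. All 3 groups were apart, and the rise with shRad21_2 was 0.49 (SE 0.08, adjusted p = 0.00105). Rpl35, which lies beside the exit of the peptide tunnel, stood at 477, 486 and 497 CPM in shNT, 577, 553 and 536 CPM with shRad21_1 and 739.6, 615 and 844 CPM with shRad21_2. Its libraries with shRad21_2 were all above the other 6, and its rise of 0.59 (SE 0.10, adjusted p = 0.00153) was the largest among called members. Rpl23, on the face that meets the small subunit, stood at 714, 774 and 796 CPM in shNT and 1108, 988 and 1276 CPM with shRad21_2, a rise of 0.56 (SE 0.10, adjusted p = 0.00125). It did not overlap between these groups.

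Rpl10a, the protein of the L1 stalk, stood at 582, 623 and 619.6 CPM in shNT and 801, 763 and 937 CPM with shRad21_2, a rise of 0.46 (SE 0.09, adjusted p = 0.0024). Rpl10 is among the last proteins to join the large subunit and stood at 709.9, 766 and 769.8 CPM in shNT and 797, 789.6 and 1067 CPM with shRad21_2. Its groups did not overlap, but it was not called (log2 fold change 0.24, SE 0.11, adjusted p = 0.105), and the value was 0.08 (adjusted p = 0.321) without shRad21_2 replicate 3. Rpl38, known for its part in the translation of Hox mRNAs, stood at 215, 238 and 230.1 CPM in shNT and 238, 266 and 409 CPM with shRad21_2. Its first shRad21_2 library was barely above the highest shNT library and replicate 3 far above, and it was not called (0.42, SE 0.17, adjusted p = 0.0658). Without shRad21_2 replicate 1 it was called (0.57, adjusted p = 0.0192), and without replicate 3 its value was 0.15 (adjusted p = 0.171).

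The 5S particle proteins were both called higher with shRad21_2. Rpl5 stood at 849, 855 and 892 CPM in shNT and 960.3, 1097 and 1316 CPM with shRad21_2, a rise of 0.38 (SE 0.11, adjusted p = 0.0159). Rpl11 stood at 596, 630.5 and 648 CPM in shNT and 899, 751 and 949.6 CPM with shRad21_2, a rise of 0.47 (SE 0.09, adjusted p = 0.00231). Leaving out shNT replicate 2 ended the Rpl5 call (0.37, adjusted p = 0.0561), and its value was 0.25 (adjusted p = 0.0313) without shRad21_2 replicate 3. Of the 4 checkpoint genes downstream of this particle, only Trp53, which encodes p53, was called, with 124 ± 3.02 CPM in shNT, 212 ± 21.1 CPM with shRad21_2 and a rise of 0.78 (SE 0.10, adjusted p = 0.000229). Mdm2, the ubiquitin ligase of p53, was not called, at 0.18 (SE 0.14, adjusted p = 0.327). The values were 0.17 (SE 0.15, adjusted p = 0.372) for its relative Mdm4 and 0.10 (SE 0.22, adjusted p = 0.736) for the p53 target Cdkn1a.

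**Figure D3:**
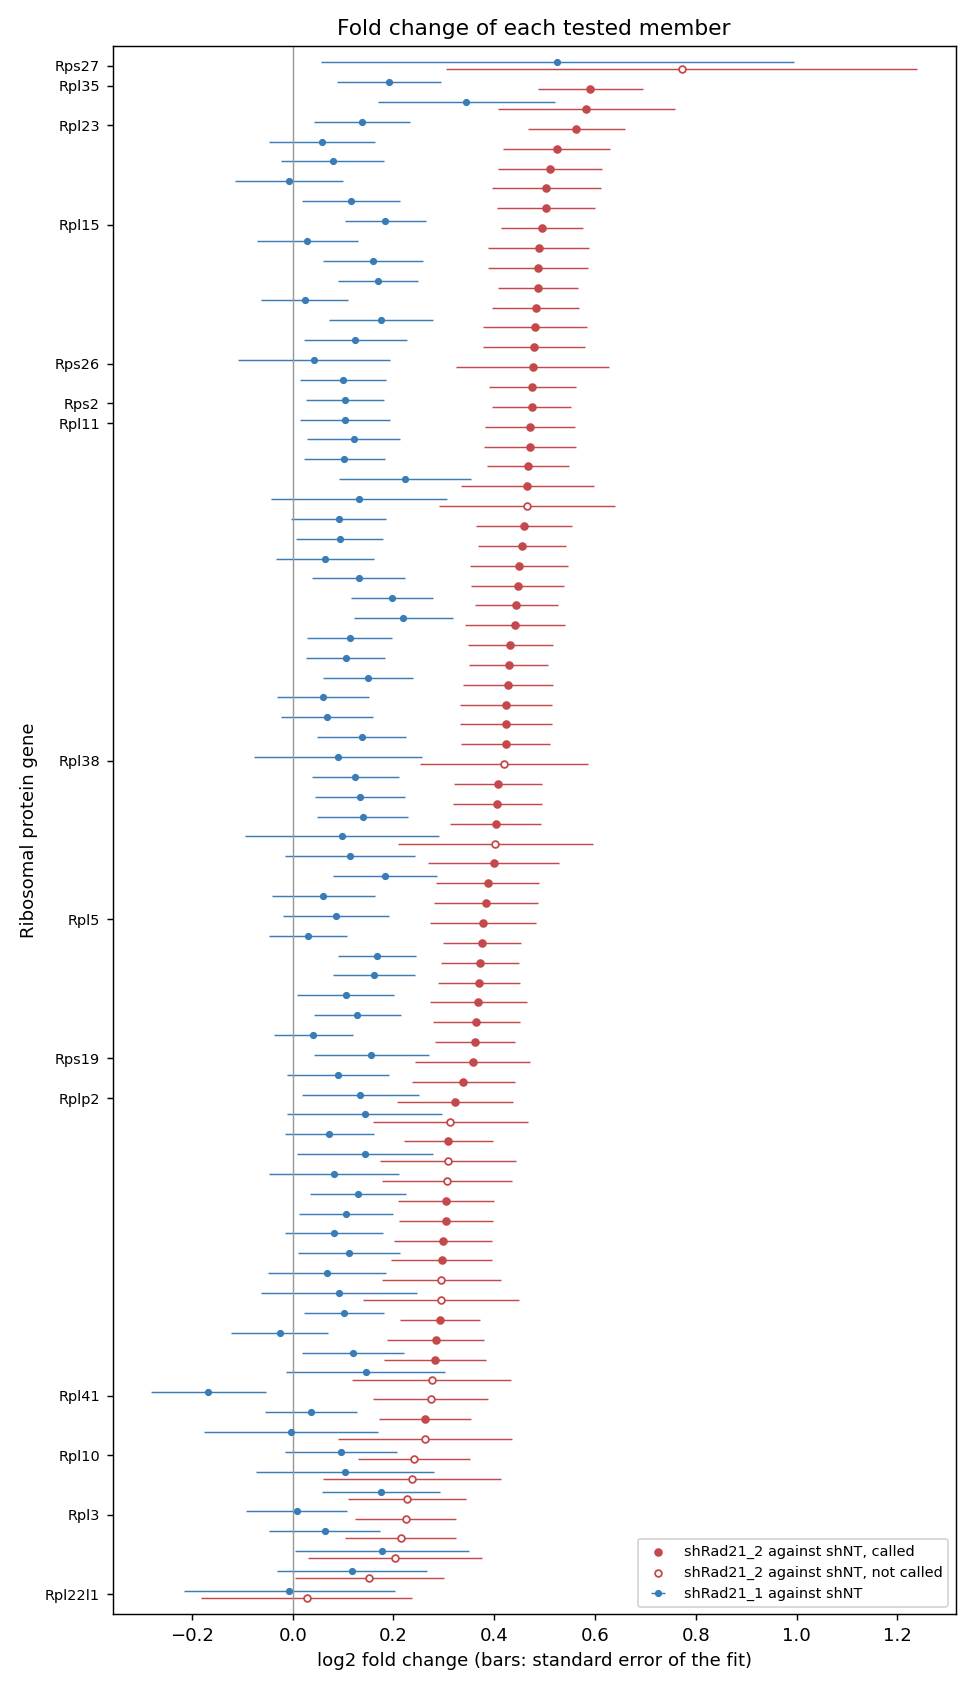
Log2 fold change of each of the 78 tested members against shNT with shRad21_2 (red, filled where called) and shRad21_1 (blue), with the standard error of the fit as bars and genes ordered by the shRad21_2 value; a few genes described in the text are named on the axis. All 78 members lie above 0 with shRad21_2, and 73 do with shRad21_1, at smaller values.

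Of the small subunit, 22 of 30 tested genes were called higher with shRad21_2 (median log2 fold change 0.41). Rps2, at the mRNA entry channel, stood at 1766, 1784 and 1837 CPM in shNT, 1953, 1914 and 1919 CPM with shRad21_1 and 2523, 2258 and 2700.4 CPM with shRad21_2. Its 3 groups were apart, and its rise with shRad21_2 was 0.47 (SE 0.08, adjusted p = 0.00102). Rps10 stood at 452, 447 and 470.2 CPM in shNT and 650.1, 557 and 697 CPM with shRad21_2, a rise of 0.48 (SE 0.09, adjusted p = 0.00173). Rps6, the substrate of the S6 kinases, stood at 932, 967 and 985 CPM in shNT and 1305, 1172 and 1405 CPM with shRad21_2, a rise of 0.43 (SE 0.08, adjusted p = 0.00187). Rpsa, which also serves as a laminin receptor, stood at 1632, 1595 and 1652 CPM in shNT and 2477, 1875 and 2307 CPM with shRad21_2. Its first library was the highest of the 3 shRad21_2 libraries, and the rise was 0.45 (SE 0.10, adjusted p = 0.00447).

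Rps14 and Rps19, whose loss causes human anaemias of ribosome origin, were called higher, Rps14 by 0.39 (SE 0.10, adjusted p = 0.0126) and Rps19 by 0.36 (SE 0.11, adjusted p = 0.0287). Rps14 stood at 546, 538 and 565 CPM in shNT and 615, 718 and 825 CPM with shRad21_2, and Rps19 at 456, 468 and 471 CPM and 504, 569 and 715 CPM. Rps19 was no longer called when a single shNT library was left out, whichever it was (0.34 to 0.37, adjusted p = 0.0737 to 0.0755) or without shRad21_2 replicate 3 (0.21, adjusted p = 0.0594), and with library totals (0.28, adjusted p = 0.0631). Rps26, another anaemia gene, stood at 881, 937 and 931 CPM in shNT and 1624, 963 and 1239.6 CPM with shRad21_2. Its first shRad21_2 library was far above the others and its second only just above shNT. The fit gave a rise of 0.48 (SE 0.15, adjusted p = 0.0278), which was 0.27 and not called (adjusted p = 0.0742) without that first library. Rps26 was also not called when a single shNT library was left out (0.45 to 0.49, adjusted p = 0.0676 to 0.0787), without shRad21_2 replicate 3 (0.50, adjusted p = 0.0556) and with library totals (0.40, adjusted p = 0.0524).

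The stalk recruits the translation factors that hydrolyse GTP, and its 3 genes were called higher with shRad21_2. Rplp0, the base of the stalk, stood at 1660.0, 1724 and 1756 CPM in shNT, 1909.9, 1809 and 1799.6 CPM with shRad21_1 and 2461, 2124 and 2521 CPM with shRad21_2. Its groups were apart, with a rise of 0.47 (SE 0.08, adjusted p = 0.00137). Rplp1 stood at 517, 532 and 540.4 CPM in shNT and 575, 634 and 753 CPM with shRad21_2, and Rplp2 at 374, 388 and 390.3 CPM and 406, 452 and 583 CPM. Their rises were smaller, at 0.30 (SE 0.09, adjusted p = 0.0246) for Rplp1 and 0.32 (SE 0.12, adjusted p = 0.0455) for Rplp2. Rplp1 was not called when a single shNT library was left out (0.29 to 0.32, adjusted p = 0.0637 to 0.0712) and with library totals (0.23, adjusted p = 0.0659), and its value was 0.19 (adjusted p = 0.048) without shRad21_2 replicate 3. Rplp2 was not called when a single shNT library was left out (0.30 to 0.33, adjusted p = 0.101 to 0.111), without shRad21_1 replicate 2 or 3 (0.32, adjusted p = 0.0614 and 0.0622), and without shRad21_2 replicate 2 (0.37, adjusted p = 0.0508) or 3 (0.16, adjusted p = 0.0965). The same held with library totals (0.25, adjusted p = 0.102), limma-voom (0.30, adjusted p = 0.053), a filter at 1 CPM (0.31, adjusted p = 0.0507) and a fit of 2 groups (0.32, adjusted p = 0.061).

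Several members have a paralog that is made in few tissues or in smaller amounts. Rpl22 and Rpl22l1 can take the same place on the ribosome. Rpl22 stood at 297, 301 and 315 CPM in shNT and 350.4, 352 and 416 CPM with shRad21_2 and rose by 0.29 (SE 0.08, adjusted p = 0.0139), which did not pass when shNT replicate 2 was left out (0.28, adjusted p = 0.055). Rpl22l1 stood at 68.5, 69.8 and 71.9 CPM in shNT, 74.8, 66.4 and 67.9 CPM with shRad21_1 and 44.3, 76.3 and 93.8 CPM with shRad21_2. Its first shRad21_2 library was the lowest of all 9 and replicate 3 the highest. The log2 fold change was 0.03 (SE 0.21, adjusted p = 0.927), and its sign turned with the scaling: it was -0.05 with library totals. Without shRad21_2 replicate 1 it was 0.28 (adjusted p = 0.0514) and without replicate 3 -0.22 (adjusted p = 0.388). Part of the Rpl22l1 transcript, 56.5% of its 50-base stretches, also occurs in Gm15421, so its counts are uncertain.

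Rpl7 stood at 965, 979 and 1005 CPM in shNT and 1277, 1212 and 1529 CPM with shRad21_2 and rose by 0.45 (SE 0.09, adjusted p = 0.00341). Its relative Rpl7l1 stood at 148, 148 and 149 CPM and 172, 193 and 211 CPM and rose by 0.37 (SE 0.08, adjusted p = 0.00481). Rpl3, which shapes the peptidyl transferase centre, stood at 1277, 1345 and 1363 CPM in shNT and 1336, 1523 and 1794 CPM with shRad21_2 and was not called (0.22, SE 0.10, adjusted p = 0.0936). Without shRad21_2 replicate 1 it was called (0.32, adjusted p = 0.0167), and without replicate 3 it stood at 0.11 (adjusted p = 0.272). Its relative Rpl3l, a gene of striated muscle, had 2 counts in 1 library and 0 in the other 8. Rpl10l and Rpl39l, both known from the testis, had 0 counts in all 9 libraries, which allows up to 3 counts, or 0.0664 to 0.088 CPM, in each. Rpl39 stood at 171, 178 and 179 CPM in shNT and 159, 213 and 275 CPM with shRad21_2 and was not called (0.29, SE 0.15, adjusted p = 0.149). Without shRad21_2 replicate 1 it was called (0.47, adjusted p = 0.00716), and without replicate 3 it stood at 0.08 (adjusted p = 0.585).

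Rps4x, the X-linked form of its protein, stood at 903, 956 and 999.8 CPM in shNT and 1050.0, 1065 and 1362 CPM with shRad21_2 and rose by 0.28 (SE 0.10, adjusted p = 0.0455). It was not called when a single shNT library was left out (0.25 to 0.32, adjusted p = 0.0773 to 0.128), without shRad21_1 replicate 2 or 3 (0.28, adjusted p = 0.0646 and 0.065) and without shRad21_2 replicate 3 (0.15, adjusted p = 0.0972). The call was also lost with library totals (0.21, adjusted p = 0.111), with no filter (0.29, adjusted p = 0.0522) and in a fit of 2 groups (0.28, adjusted p = 0.0657). Rps4l, annotated as a transcribed processed pseudogene with 1 exon, had 51 counts over all libraries. Its counts were 10, 8 and 1 in shNT, 3, 1 and 1 with shRad21_1 and 9, 9 and 9 with shRad21_2. Rpl3l, Rpl10l, Rpl39l and Rps4l were the 4 members that the filter removed, and they were not tested.

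For 4 members, Rps27, Rpl34, Rpl30 and Rpl26, a near-identical single-exon copy elsewhere in the genome held more counts than the member itself. These pairs were chosen after their counts were seen, and other members with a copy, such as Rpl14, had many counts of their own. Rps27 had 735 counts over all 9 libraries, and Rps27rt, a single-exon gene that is annotated as protein coding, had 86866. On mm10, Rps27 lies on chromosome 3 from 90212522 to 90213651 with 4 exons, and Rps27rt on chromosome 9 from 114982366 to 114982739. The copies of the other 3, Rpl34-ps1, Gm12191 and Gm15772, are annotated as processed pseudogenes. Rpl34 had 13063 counts beside 85030 on Rpl34-ps1, Rpl30 had 10577 beside 111503 on Gm12191, and Rpl26 had 13948 beside 178142 on Gm15772. The 60 coding bases shown for each pair, numbered from the A of the start codon and taken from GENCODE transcripts of mm10, hold the differing base in capitals where there is one.
Rps27, bases 1 to 60: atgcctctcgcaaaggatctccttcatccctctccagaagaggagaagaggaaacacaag
Rps27rt, bases 1 to 60: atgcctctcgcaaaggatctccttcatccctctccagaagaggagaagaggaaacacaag
Rpl34, bases 102 to 161: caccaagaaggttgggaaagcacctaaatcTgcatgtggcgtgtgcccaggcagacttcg
Rpl34-ps1, aligned to the same bases: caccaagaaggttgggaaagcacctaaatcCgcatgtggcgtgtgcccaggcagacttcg
Rpl30, bases 66 to 125: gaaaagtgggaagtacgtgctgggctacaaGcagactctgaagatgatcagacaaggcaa
Gm12191, aligned to the same bases: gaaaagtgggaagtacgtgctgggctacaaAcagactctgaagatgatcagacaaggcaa
Rpl26, bases 147 to 206: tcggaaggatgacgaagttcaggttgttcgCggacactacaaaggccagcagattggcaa
Gm15772, aligned to the same bases: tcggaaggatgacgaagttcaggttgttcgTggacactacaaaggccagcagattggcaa
Over the whole aligned stretch, Rps27 and Rps27rt did not differ in 341 bases. Rpl34 and its copy differed at 2 of 354 bases, Rpl30 and its copy at 1 of 348, and Rpl26 and its copy at 2 of 438. The counts of such a pair cannot be divided between its 2 genes from this table.

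On their own, Rps27, Rpl30 and Rpl34 overlapped between shNT and shRad21_2. Rps27 stood at 1.37, 1.75 and 1.49 CPM in shNT, 1.44, 3.84 and 1.36 CPM with shRad21_1 and 2.06, 1.53 and 4.31 CPM with shRad21_2. In shRad21_1 replicate 2 and shRad21_2 replicate 3 its value stood apart from the other libraries, and the fit gave 0.77 (SE 0.47, adjusted p = 0.206), or 0.23 (adjusted p = 0.719) without the latter. Rpl30 (0.26, SE 0.17, adjusted p = 0.243) and Rpl34 (0.20, SE 0.17, adjusted p = 0.363) were not called either. Without shRad21_2 replicate 1 both were called (Rpl30 0.45, adjusted p = 0.0271, and Rpl34 0.38, adjusted p = 0.0469). Without replicate 3 they stood at 0.03 (adjusted p = 0.877) and 0.08 (adjusted p = 0.757). Rpl26 stood at 33.4, 33.2 and 30.3 CPM in shNT and 34.8, 59.3 and 51.0 CPM with shRad21_2 and was called higher (0.58, SE 0.18, adjusted p = 0.0223). It was not called without shNT replicate 2 (0.60, adjusted p = 0.0566) or 3 (0.54, adjusted p = 0.076), nor without shRad21_2 replicate 2 (0.41, adjusted p = 0.0816) or 3 (0.54, adjusted p = 0.0657).

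Summed with its copy, Rps27 stood at 225, 234 and 230.2 CPM in shNT and 212, 284 and 344 CPM with shRad21_2, so that 1 library lay below and 2 above. The sum for Rpl30 was 309, 318 and 321 CPM in shNT and 300.1, 405 and 482 CPM with shRad21_2, again with 1 library below. The sum for Rpl34 was 243, 251 and 253 CPM in shNT and 266, 318 and 383 CPM with shRad21_2, without the overlap that Rpl34 had on its own. The sum for Rpl26 was 462, 474 and 483 CPM in shNT and 591, 614 and 783 CPM with shRad21_2, with no overlap. Of the 4 copies, Gm15772 (0.48, SE 0.11, adjusted p = 0.00562) and Rpl34-ps1 (0.40, SE 0.12, adjusted p = 0.0199) were called higher with shRad21_2. Rpl34-ps1 was not called when a single shNT library was left out (0.37 to 0.42, adjusted p = 0.0511 to 0.0614), and its value was 0.25 without shRad21_2 replicate 3. Rps27rt (0.28, SE 0.14, adjusted p = 0.135) and Gm12191 (0.33, SE 0.14, adjusted p = 0.0739) were not called, but were without shRad21_2 replicate 1 (0.45, adjusted p = 0.00516, and 0.49, adjusted p = 0.00205). Without replicate 3 these stood at 0.11 and 0.17.

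**Figure D4:**
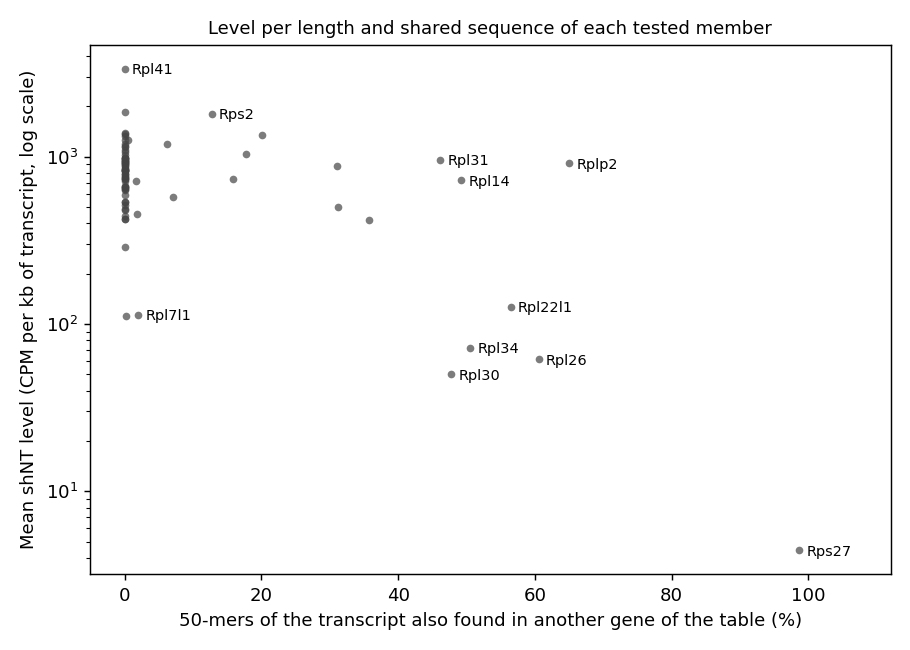
Mean shNT level of the 78 tested members per kilobase of transcript (CPM per kb, log scale) against the percentage of the transcript's 50-base stretches that also occur in another gene of the table; each point is a gene. Rps27 (4.45 CPM per kb), Rpl30, Rpl26 and Rpl34 are the lowest members, and each shares at least 47.8% of its stretches, while Rplp2 and Rpl14 share as much and lie among the other members.

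With shRad21_1, no member was called in either direction, while 9.82% of all genes tested were called, with 4.19% higher and 5.63% lower. Of the 2458 other genes with a mean of at least 100 CPM, 4.72% were called higher. At an unadjusted p under 0.05 there were 2 members with edgeR, 3 with DESeq2 and 3 with limma-voom, and both of these tools also called 0 after adjustment. The median log2 fold change of the members was 0.11 (1.08-fold), against 0.01 over all genes tested and 0.05 over those 2458 genes. Values ran from -0.17 for Rpl41 to 0.53 for Rps27, with 73 members above 0 and 5 below. For 55 members all 3 shRad21_1 libraries lay above all 3 shNT libraries, which is 70.5% against 20.3% of all genes tested, and for 1 member, Rpl41, all 3 lay below, against 19.9% of all genes tested. Rpl15 (0.18, SE 0.08, adjusted p = 0.182) and Rpl31 (0.22, SE 0.10, adjusted p = 0.189) were among the members with the smallest p, given as log2 fold changes with shRad21_1. Rpl31 stood at 446, 469 and 485 CPM in shNT and 539.7, 554 and 537 CPM with shRad21_1, with no overlap, and was called without shRad21_2 replicate 3 (0.22, adjusted p = 0.0475). In a fit of these 2 groups alone, 37 members had an unadjusted p under 0.05. In that fit 4 members were called higher, Rpl31 (adjusted p = 0.0336) among them, beside 5.89% of all genes tested.

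Between the hairpins, 35 of 78 members (44.9%) were called higher with shRad21_2 than with shRad21_1 and 0 lower, while 26.3% of all genes tested were called, with 11.9% higher and 14.4% lower. Of the 2458 other genes with a mean of at least 100 CPM, 19.7% were called higher. The median difference was 0.28 on the log2 scale (1.21-fold), against -0.0022 over all genes tested and 0.09 over those 2458 genes. Without shRad21_2 replicate 3 it was 0.16. For 45 members (57.7%) the shRad21_2 libraries all lay above the shRad21_1 libraries, against 19.4% of all genes tested, and for 0 they lay below, against 19.8%. By subunit, 22 of 45 large, 12 of 30 small and 1 of 3 stalk genes were called. Rps15, a protein of the subunit head, stood at 722, 665 and 666 CPM with shRad21_1 and 1116, 807 and 1005 CPM with shRad21_2, the largest difference of all members at 0.51 (SE 0.11, adjusted p = 0.0078). Rpl19 stood at 976, 888 and 871 CPM and 1402, 1065 and 1293 CPM, a difference of 0.46 (SE 0.10, adjusted p = 0.00927). These 2 genes did not overlap between the hairpins, and in both shRad21_2 replicate 1 was the highest library. Rps2 (0.37), Rplp0 (0.36), Rpl4 (0.35), Rpl23 (0.43) and Rps23 (0.47) were called as well. The number called depended on single libraries: it was 9 without shRad21_1 replicate 2 and 9 without replicate 3, and 21 without shRad21_2 replicate 3. Of all genes tested, 5.46%, 5.57% and 8.33% were called higher in the same order. Leaving out any 1 of the other 6 libraries gave 25 to 48, the 48 being without shRad21_2 replicate 1, beside 8.35% to 14.8% of all genes tested. The number was 10 in a fit of these 2 groups alone, beside 6.58% of all genes tested. With the close pairs of libraries summed it was 0, beside 2.56%, and 31 members had an unadjusted p under 0.05 there.

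Among the 3 shRad21_2 libraries, replicate 1 stood apart in the pattern of its members. The interquartile range of the members was 0.313 on the log2 scale in replicate 1, 0.105 in replicate 2 and 0.129 in replicate 3, all relative to the shNT mean. In the other 6 libraries it was at most 0.111. Among the 2458 other genes with a mean of at least 100 CPM it was 0.493, 0.461 and 0.479 in the same 3 libraries, which differ by less between the replicates. In replicate 1, 64 members were above every shNT library and 12 were below every one, while replicates 2 and 3 had 77 and 78 above and 0 below. Replicate 3 was the highest of the 3 for 70 members. The following genes were picked for these values, so no test is given. Against the mean of replicates 2 and 3, replicate 1 was lower for 57 members and higher for 21. The lowest were Rpl22l1 (-0.93 on the log2 scale), Rps13 (-0.77), Rps15a (-0.68) and Rps29 (-0.67), and the highest were Rps26 (0.57), Rps15 (0.31), Rpl19 (0.26) and Rpsa (0.25). Rps13 stood at 309, 318 and 318 CPM in shNT and 251, 388 and 475 CPM with shRad21_2, and Rps29 at 305, 329 and 334 CPM and 300.0, 388 and 591 CPM. Across the 78 members, which share these libraries, the deviation of replicate 1 had a Spearman correlation of 0.31 with transcript length and 0.32 with GC content. This library also held the most Rn45s counts, and the part of Rn45s in the pattern was not tested.

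**Figure D5:**
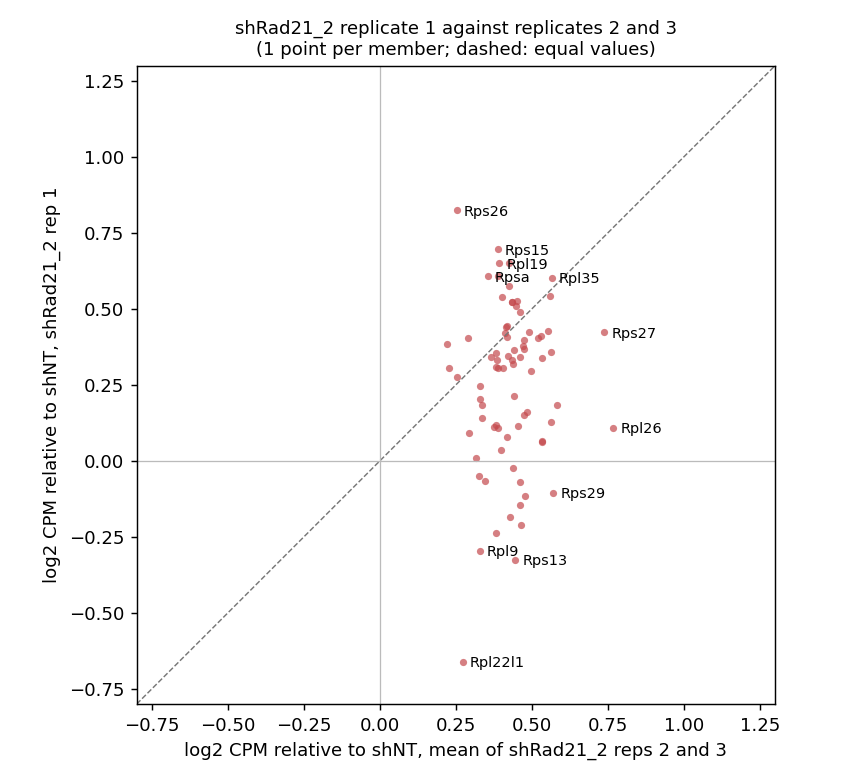
Level of each of the 78 tested members in shRad21_2 replicate 1 against the mean of replicates 2 and 3, both as log2 CPM relative to the mean of shNT; each point is a gene and the dashed line marks equal values. All 78 members lie above 0 on the horizontal axis, while 13 lie below 0 on the vertical axis, with Rpl22l1 lowest.

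These values touch the counts given above. Of the 20 members not called in shRad21_2 against shNT, 15 overlapped between the groups. In 14 of them replicate 1 was the library that reached into the shNT range or below, and in Rps27 it was replicate 2. The other 5, Rpl10, Rpl38, Rpl41, Rps25 and Rps28, did not overlap. Without replicate 1, 70 members were called higher, with a median log2 fold change of 0.44, beside 19.4% of all genes tested called higher. Without replicate 3, the library with the largest share of counts on members, 46 were called higher, with a median of 0.29, beside 18.5% of all genes tested. No member was called lower in either fit.

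The members were also counted by the letters around their annotated start, for shRad21_2 against shNT. Among all genes tested, 21.1% were called higher in this comparison, and the median log2 fold change was 0.01. Of the 58 tested members with a start, 7 of 13 with the tract were called higher (median log2 fold change 0.34) and 35 of 45 without it (median 0.41). For CCGGAAG the numbers were 16 of 23 with the motif (median 0.43) and 26 of 35 without it (median 0.38). These are counts over annotated start sites, so a run that begins just beside the start, as in Rpl22l1, counts as no tract. The difference between the sets was not tested.

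Other genes of the translation machinery are given here for shRad21_2 against shNT, from lists of related genes. The median log2 fold change over all genes tested was 0.01, with 21.1% of them called higher and 22.5% lower. Of 7 ribosomal proteins that are no members, Rps27l among them, 6 were called higher and 0 lower (median log2 fold change 0.36). They included Gnb2l1 (0.46, SE 0.10, adjusted p = 0.00346), the scaffold also called Rack1, and Rpl36al (0.34, SE 0.08, adjusted p = 0.00917). Rps27rt was the exception. Of 16 other mRNAs known to carry a TOP motif, 14 were called higher and 0 lower (median 0.33), beside the same 21.1%. The smallest p values belonged to Pabpc1 (0.57, SE 0.08, adjusted p = 0.000565), the poly(A)-binding protein, the initiation factor Eif4b (0.33, SE 0.06, adjusted p = 0.00181) and the elongation factor subunit Eef1g (0.46, SE 0.08, adjusted p = 0.0019).

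Of 13 regulators of TOP mRNAs and of ribosomal protein genes, 3 were called higher and 0 lower (median 0.18), a share near the 21.1% of all genes tested. Larp1 stood at 215, 202 and 199 CPM in shNT, 289, 240.5 and 246 CPM with shRad21_1 and 390.4, 395 and 346 CPM with shRad21_2, a rise of 0.88 (SE 0.09, adjusted p = 6.48e-05). Myc, a transcription factor that drives ribosome genes, stood at 127, 176 and 170.0 CPM, 205, 293 and 282 CPM and 358, 293 and 324 CPM, a rise of 1.04 (SE 0.16, adjusted p = 0.000685). Both genes were apart in all 3 groups, in the same order, Myc only just between the hairpins. Max, the partner of Myc, rose by 0.48 (SE 0.10, adjusted p = 0.00386). With shRad21_1, 2 of the 13 were called higher, where 4.19% of all genes tested were.

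Of 12 chaperones and assembly partners of single ribosomal proteins, 10 were called higher and 0 lower (median 0.36), beside 21.1% of all genes tested. Rrs1, which brings the 5S particle into the large subunit, rose by 0.90 (SE 0.07, adjusted p = 1.82e-05). Nob1, the nuclease that completes the small-subunit RNA, rose by 0.64 (SE 0.08, adjusted p = 0.000207), and Grwd1, a chaperone of Rpl3, by 0.71 (SE 0.09, adjusted p = 0.000212). Of 8 host genes of small nucleolar RNAs, 4 were called higher and 0 lower (median 0.37), beside the same 21.1%. Gas5, itself a TOP transcript, rose by 0.65 (SE 0.12, adjusted p = 0.00157). Snhg3 (0.88, SE 0.22, adjusted p = 0.00945) and Snhg7 (0.86, SE 0.24, adjusted p = 0.0168) had means under 2 CPM in shNT, and Snhg7 was not called when shNT replicate 2 or 3 was left out (0.86 and 0.85, adjusted p = 0.0553 and 0.0555) nor without shRad21_2 replicate 2 (0.69, adjusted p = 0.059).

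The ribosomal proteins of mitochondria, which serve a separate ribosome, were counted as well. Of 76 tested, 21 were called higher and 3 lower (median log2 fold change 0.18), where 21.1% of all genes tested were called higher. Mrpl12 (0.45, SE 0.09, adjusted p = 0.00313) and Mrpl20 (0.39, SE 0.08, adjusted p = 0.00321) of the large mitochondrial subunit rose. Mrps6 of the small subunit stood at 107, 157 and 159.6 CPM in shNT and 54.2, 44.0 and 55.8 CPM with shRad21_2, a change of -1.46 (SE 0.20, adjusted p = 0.000408). With shRad21_1, 0 mitochondrial members were called higher and 1 lower, beside 4.19% and 5.63% of all genes tested.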

How the data were processed

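RNA-seq counts per gene symbol in 9 libraries of mouse neural stem cells were used as deposited by the authors: whole numbers, not normalised. Per the submitters' processing notes, FastQC, cutadapt, Trim Galore, Bowtie2, RSEM and the build mm10 were used. The sources used here do not give versions, annotation, strand setting or the rounding of RSEM estimates, and the counting decides how reads of near-identical genes are divided.

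Genes passing filterByExpr by group (13560) entered edgeR's quasi-likelihood test (edgeR 4.0.16, R 4.3.3), two-sided, with TMM scaling and all 9 libraries in 1 fit of 3 group means. A gene was called at a Benjamini-Hochberg adjusted p under 0.05 over all genes tested, with no minimum fold. CPM uses TMM-scaled totals, errors are SD with n = 3, and SE is that of the fit. The members and lists were chosen with earlier results of these data known. The rule for naming took members by role, up to 8 called in each direction with the smallest p per comparison (the first 3 where none was called), the 3 highest and 3 lowest by mean CPM, those removed by the filter, and up to 3 called genes per list (all where 4 or fewer were tested); some genes it takes are not reported here. Comparisons against shNT share its libraries. Transcripts, GC and positions are from GENCODE, matched by symbol for 82 members, as the shortest principal transcript.

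Alternatives were other scalings, filters and tools (DESeq2 1.42.0, limma 3.58.1), a replicate block, fits of 2 groups, summed close libraries and each library left out. The labels do not say what a replicate number marks. Same-numbered libraries of shNT and shRad21_1 deviated together across genes (correlations of 0.24, 0.12 and 0.12). However, shNT replicates 2 and 3 correlated more with each other's number (0.16 and 0.15). Same-numbered libraries of shRad21_2 and shNT correlated weakly (0.06 to 0.08), where differently numbered ones ran from -0.06 to -0.01. For shRad21_2 and shRad21_1, same-numbered libraries ran from 0.02 to 0.09 and differently numbered ones from -0.08 to 0.06. Whether libraries of the same number are pairs is not settled by these values. The main fit held no replicate block. Code was tested on simulated data.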

Additional observations from a re-analysis of the deposited data

How the results depend on the processing

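No member was called lower in any comparison under any of the 21 settings, and 38 members were called higher in shRad21_2 against shNT in all of them. The medians of the 3 comparisons kept their sign throughout. The share of all genes tested that was called higher also moved with the setting. With shRad21_1 against shNT it ran from 0.469% to 6.71%, and with shRad21_2 against shNT from 11.6% to 24.3%. Between the hairpins it ran from 2.56% to 15.8%. With shRad21_1 against shNT, 4 members were called in a fit of 2 groups in place of 0, and leaving out each library gave 0 to 1, the 1 being without shRad21_2 replicate 3. In shRad21_2 against shNT, 38 were called with close pairs of libraries summed in place of 58, and leaving out each library gave 42 to 70. Between the hairpins, 10 were called in a fit of 2 groups in place of 35, and leaving out each library gave 9 to 48. With close pairs summed it was 0, with 31 at an unadjusted p under 0.05 by edgeR, where DESeq2 called 41 and limma-voom 34 on the separate libraries. The pairs were replicates 2 and 3 of shNT and of shRad21_1, whose chi-square per gene was 3.20 and 2.18, against 23.2 to 70.7 for the other pairs within a group. Summing them leaves fewer libraries.

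With the replicate block, 0, 57 and 30 members were called higher in the 3 comparisons in the order above, beside 4.54%, 21.8% and 12.3% of all genes tested. No call among the named genes changed. Only the sign of Rpl22l1 turned, to -0.0063.

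In shRad21_2 against shNT, Rpl22l1, at 0.03, was also negative with library totals (-0.046) and with limma-voom (-0.049), and it ran from -0.22 without shRad21_2 replicate 3 to 0.28 without replicate 1, with -0.019 without replicate 2. Cdkn1a, at 0.10, ran from -0.063 without shRad21_2 replicate 1 to 0.21 without replicate 2, and Mdm4, at 0.17, from -0.038 without replicate 2 to 0.27 without replicate 1. The cause of these changes was not tested. Library totals moved the median of all genes by less than 0.1.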
